A study of Mus musculus with 8 samples.

Results

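The adipogenic transcription factors and their marker targets were followed in mouse fat cells exposed to asbestos. The set had 10 genes, chosen by gene name on the array: 8 transcription factors (Cebpb, Cebpd, Pparg, Cebpa, Rxra, Klf15, Ebf1 and Ebf2) and 2 of their targets, Fabp4 and Cd36, which are not transcription factors. These 10 genes were read by 11 of the 55681 probes of the array and made up 10 of the 23054 genes tested. The cells were of the 3T3-L1 line, an established mouse preadipocyte line, differentiated into mature adipocytes and then treated. The groups received physiological saline alone, or chrysotile, crocidolite or amosite fibres at a labelled dose of 10 mg/cm2, and total RNA was taken after 72 h. The unit of the dose is printed as the labels give it and could not be checked: whether micrograms were meant is not settled by the sources used here. Chrysotile is a serpentine asbestos, and crocidolite and amosite are amphiboles. Each of the 4 groups had 2 one-colour Agilent arrays, 8 in all, and the labels do not say whether the 2 came from separate cultures, so the p-values rest on a spread between samples that could be wholly technical.

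Fat cell differentiation is run by a cascade of transcription factors. C/EBPb and C/EBPd are induced first by the differentiation cocktail. They switch on PPARg and C/EBPa, which sustain each other's expression and the genes of lipid storage and uptake, and PPARg binds DNA as a heterodimer with RXRa. C/EBPb and C/EBPd are also known in many cell types as factors induced by cytokines and stress.

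Levels are log2 processed intensity minus the 75th percentile of the same array, so that 0 is the level of that percentile. All 11 probes were well above background on all 8 arrays by the scanner's own call, and none was saturated. The probes are 60 bases long, and the first 30 bases are printed for the probes on which the results below turn: the early C/EBP pair, the central factor Pparg, and Rxra, the one gene with a second probe. Positions are those of the mouse build mm9 given in the array files, all on the + strand. Which exon or untranslated region each lies in was not analysed here.
Cebpd, chr16:15888459-15888518: gacatttccgacagacttttgtagataaga
Cebpb, chr2:167515828-167515887: agaggcgtatgtatattttgagaacctttt
Pparg, chr6:115440213-115440272: gcaggaaagtcccacccgctgacaacgtgt
Rxra, chr2:27615316-27615375: gtccttatgggcccaaaagatgcatcacca
Rxra, second probe, chr2:27618781-27618839: taattacaggttaacaatgccccatctgtg

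Between 56.2% and 62.8% of probes were well above background on each array, and the 75th percentile lay at an intensity of 340.1 to 453.4. Markers of the mature adipocyte (Adipoq, Plin1, Lpl, Lep, Cfd, Retn, Slc2a4, Cidec, Lipe and Pnpla2) were well above background on every array, 10 of 10, with a mean log2 level between 6.02 and 6.55. Lep was the dimmest of them, at -2.97 to -1.80. All 12 preadipocyte and fibroblast markers were also well above background on every array, with a mean log2 level between 4.22 and 4.73. Dlk1, the preadipocyte inhibitor, was among them, at a log2 level of 6.97 to 8.11. Fewer cells of a type and less RNA per cell cannot be told apart in such bulk RNA.

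Cebpd, which encodes C/EBPd, was the one member whose level separated crocidolite and chrysotile from saline. Its log2 level was 3.31 and 3.52 on the saline arrays, 3.76 and 4.50 with chrysotile, 4.39 and 4.41 with crocidolite, and 3.45 and 3.57 with amosite. Every chrysotile and crocidolite array lay above both saline and both amosite arrays, while the amosite and saline arrays overlapped. The unscaled intensity had the same arrangement, with 3851 and 3899 for saline, 5544 and 9973 for chrysotile, 9522 and 9436 for crocidolite, and 4393 and 4723 for amosite. The first chrysotile array lay nearer to saline than to the second chrysotile array, whereas the pair of crocidolite arrays were almost equal.

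With crocidolite, Cebpd was higher than in saline by a log2 of 0.99 ± 0.24 (standard error; 95% interval 0.40 to 1.57), a 1.98-fold level. The unadjusted p was 0.00583, ranked 237 among all genes, and limma's Benjamini-Hochberg adjusted p was 0.561. With chrysotile it was higher by 0.71 ± 0.24 (0.13 to 1.30), a 1.64-fold level, with an unadjusted p of 0.024, rank 597 and a limma adjusted p of 0.897. With amosite the difference was 0.10 ± 0.24 (-0.48 to 0.68), with a limma adjusted p of 1. None of these passed the adjusted threshold of 0.05, and the 3 comparisons share their saline arrays. Over all 4 groups limma's F test gave Cebpd an unadjusted p of 0.0154 and an adjusted p of 0.94, where 4.92% of all genes had an unadjusted p under 0.05.

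Between the fibres, Cebpd was higher with crocidolite than with amosite by 0.89 ± 0.24 (0.31 to 1.47), with an unadjusted p of 0.00947 and a limma adjusted p of 0.873. It was higher with chrysotile than with amosite by 0.61 ± 0.24 (0.03 to 1.20), with an unadjusted p of 0.0418 and a limma adjusted p of 1. In both cases the arrays of the groups did not overlap. Chrysotile and crocidolite overlapped, with a difference of -0.27 ± 0.24 (-0.86 to 0.31; limma adjusted p of 1), an interval that leaves room for either fibre to be higher. The size of the chrysotile difference depended on which array was kept: against saline it was 0.35, with an unadjusted p of 0.085, without the second chrysotile array, and 1.08, with an unadjusted p of 0.000967, without the first. Against amosite it lay between 0.25 and 0.98 over all settings run. The crocidolite difference from saline stayed between 0.88 and 1.17 under all alternative settings.

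**Figure D1:**
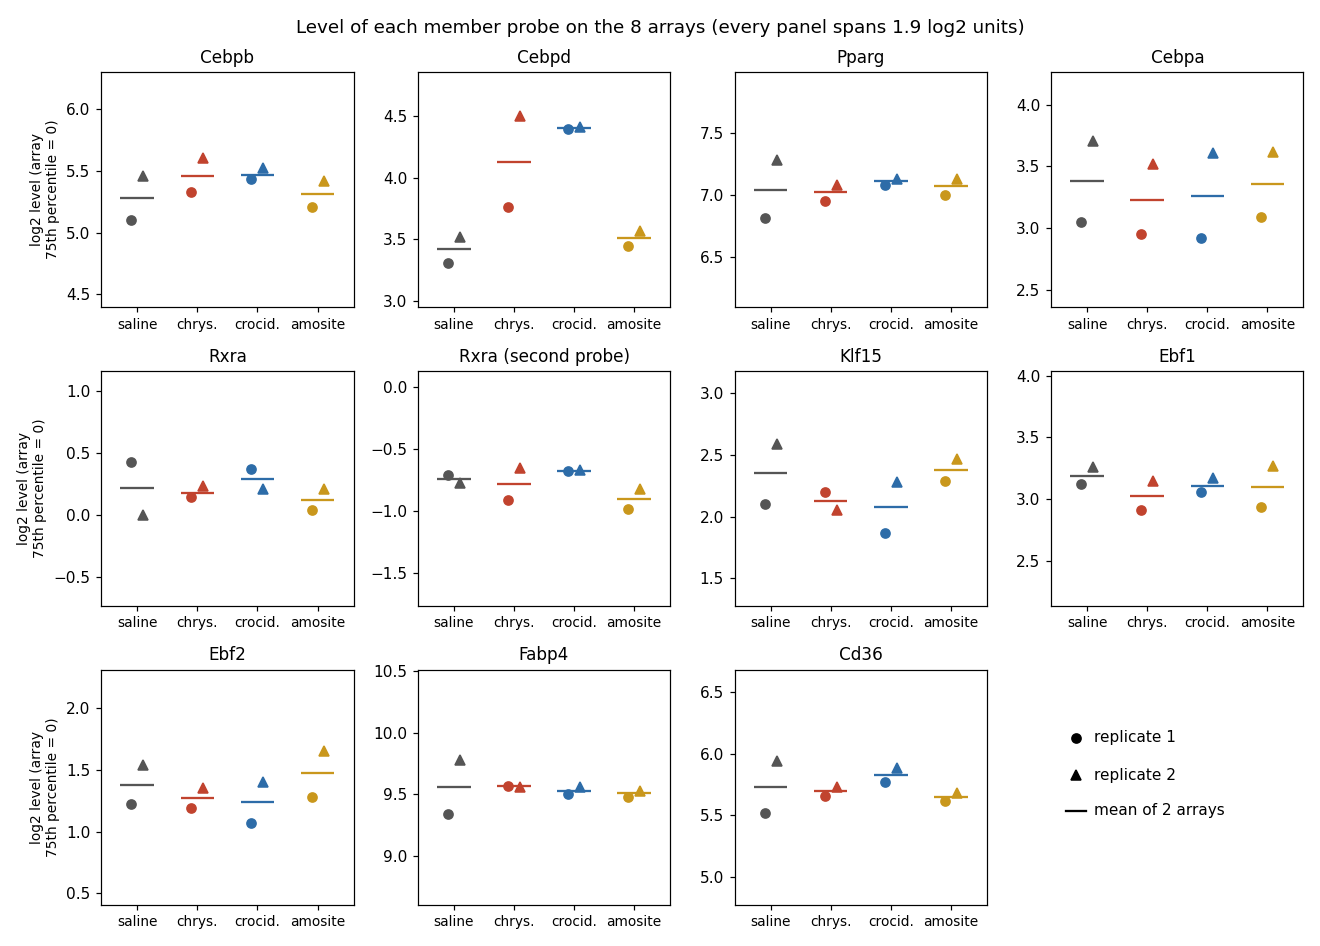
Log2 level of each of the 11 probes (vertical axis, 75th percentile of the array at 0) in the 4 groups; circles are replicate 1, triangles replicate 2 and bars the mean of the 2 arrays, and every panel spans the same number of log2 units. Cebpd was at 3.76 to 4.50 on the chrysotile and crocidolite arrays and at 3.31 to 3.57 on the saline and amosite arrays, and for the other 9 genes the arrays of each fibre group overlapped with saline on the probe used.

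Marker lists of other cell types were measured on the same arrays. The mean log2 level of the macrophage list, 7 of whose 10 genes were measured, was -0.29 to 0.22 in saline, 0.19 to 0.34 with chrysotile, 0.20 to 0.35 with crocidolite and -0.17 to 0.12 with amosite. Adgre1, Lyz2 and Tyrobp, which are among the defining macrophage genes, were not well above background on both arrays of any group. Of the others, Cd14 differed from saline by 0.70, 0.96 and 0.20 and Cd68 by 0.60, 0.41 and 0.13 with chrysotile, crocidolite and amosite. Csf1r, the receptor for macrophage colony-stimulating factor, went the other way in the means, with -0.45, -0.37 and -0.46. The preadipocyte and fibroblast list was at 4.29 to 4.54 in saline, 4.46 to 4.68 with chrysotile, 4.49 to 4.73 with crocidolite and 4.22 to 4.52 with amosite. Its genes did not go one way with chrysotile and crocidolite, where 5 and 4 of 12 were below saline, with medians of 0.04 and 0.10. With amosite 10 of 12 were below saline, with a median of -0.10. Of all genes, 51.2%, 53.7% and 55.4% were below saline with chrysotile, crocidolite and amosite. Ly6a differed by 0.82, 0.78 and -0.01, Acta2 by 0.75, 1.17 and 0.29 and Sox9 by -0.09, -0.08 and -0.12. Of the 10 adipocyte markers named above, 10, 9 and 9 were below saline, with medians of -0.14, -0.17 and -0.11, beside the same shares of all genes. All of them are also in the list of PPARg and C/EBPa targets given further below, so these counts are not separate from those of that list. The medians of that list turned positive, to 0.04, 0.06 and 0.05, without the second saline array. The mean level of the adipocyte markers was 6.12 to 6.55 in saline. It was 6.10 to 6.26 with chrysotile, 6.02 to 6.34 with crocidolite and 6.10 to 6.37 with amosite, each overlapping with saline. None of these marker differences passed the adjusted threshold, and their part in the Cebpd result was not tested.

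Cebpb, the partner of Cebpd at the start of the cascade, was at a log2 level of 5.10 and 5.46 in saline, 5.33 and 5.60 with chrysotile, 5.43 and 5.52 with crocidolite, and 5.21 and 5.42 with amosite. The fibre arrays overlapped with saline in every group. The differences from saline were 0.19 ± 0.17 (-0.24 to 0.61), 0.20 ± 0.17 (-0.23 to 0.62) and 0.04 ± 0.17 (-0.39 to 0.46), in the order chrysotile, crocidolite and amosite. The signs were those of Cebpd, but the chrysotile and crocidolite differences were about as large as their standard errors and the amosite difference was smaller than its own. Crocidolite and amosite arrays did not overlap, with Cebpb higher with crocidolite by 0.16.

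Pparg, the central adipogenic nuclear receptor, was at 6.81 and 7.28 in saline, 6.95 and 7.08 with chrysotile, 7.08 and 7.13 with crocidolite, and 7.00 and 7.13 with amosite. All 6 fibre arrays lay between the lower and the higher saline array. The differences from saline were -0.03, 0.06 and 0.02, each ± 0.18, for chrysotile, crocidolite and amosite, and the 95% intervals together reached from -0.45 to 0.49. The probe was printed 10 times on each array, and the SD between these spots was 0.05 to 0.07. The gap of 0.48 between the 2 saline arrays was thus several times the spread between spots of one array.

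Cebpa, which sustains the differentiated state with PPARg, was at 3.05 and 3.71 in saline, 2.95 and 3.52 with chrysotile, 2.92 and 3.61 with crocidolite, and 3.09 and 3.62 with amosite. In every group the second array was higher by 0.53 to 0.70, far more than any difference between group means. The differences from saline were -0.14, -0.11 and -0.02, each ± 0.36, and the intervals reached from -1.03 to 0.86. Among the members Cebpa had the widest intervals, so a change of up to about that size in either direction was not detectable.

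Rxra, the DNA-binding partner of PPARg, was at 0.43 and 0.00 in saline, 0.14 and 0.23 with chrysotile, 0.37 and 0.21 with crocidolite, and 0.04 and 0.21 with amosite. The 2 saline arrays enclosed all the fibre arrays. The differences from saline were -0.03, 0.08 and -0.09, each ± 0.17. Its second probe gave -0.71 and -0.77 in saline, -0.91 and -0.65 with chrysotile, -0.68 and -0.67 with crocidolite, and -0.98 and -0.82 with amosite. On that probe the 2 crocidolite arrays lay just above saline and the 2 amosite arrays below it, so that its groups did not overlap there, with differences of 0.06 and -0.16 that did not pass limma's adjusted threshold.

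Klf15 is a Krüppel-like factor that acts with the C/EBPs to raise Pparg, and it also raises Slc2a4. Klf15 was at 2.10 and 2.59 in saline, 2.20 and 2.05 with chrysotile, 1.87 and 2.28 with crocidolite, and 2.29 and 2.47 with amosite. Its difference from saline was -0.22 ± 0.22 (-0.75 to 0.31) with chrysotile and -0.27 ± 0.22 (-0.79 to 0.26) with crocidolite, with overlapping arrays, and 0.03 with amosite. The chrysotile and crocidolite arrays all lay below the amosite arrays, with differences of -0.25 and -0.30 between the means. No Klf15 comparison passed the unadjusted threshold.

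Ebf1 and Ebf2 are early B-cell factors that act upstream of Pparg, and Ebf2 also marks the brown and beige fat lineage. Ebf1 was at 3.12 and 3.26 in saline, 2.91 and 3.15 with chrysotile, 3.06 and 3.17 with crocidolite, and 2.94 and 3.27 with amosite. Ebf2 was at 1.22 and 1.54 in saline, 1.19 and 1.35 with chrysotile, 1.07 and 1.40 with crocidolite, and 1.28 and 1.65 with amosite. For both genes each fibre group overlapped with saline. Ebf1 differed from saline by -0.16, -0.08 and -0.09, each ± 0.16, and Ebf2 by -0.11, -0.15 and 0.09, each ± 0.20.

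Fabp4, the fatty acid binding protein of adipocytes and a direct PPARg target, was at 9.34 and 9.78 in saline, 9.57 and 9.56 with chrysotile, 9.50 and 9.56 with crocidolite, and 9.48 and 9.53 with amosite. Cd36, the fatty acid transporter, was at 5.52 and 5.94 in saline, 5.66 and 5.73 with chrysotile, 5.77 and 5.88 with crocidolite, and 5.62 and 5.68 with amosite. As with Pparg, the 6 fibre arrays of both genes fell inside the range of the saline pair. Fabp4 differed from saline by 0.00, -0.03 and -0.05, each ± 0.16, with intervals from -0.45 to 0.40. Cd36 differed by -0.04, 0.09 and -0.08, each ± 0.16, with intervals from -0.47 to 0.48. These intervals leave room for changes of that size in either direction.

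**Figure D2:**
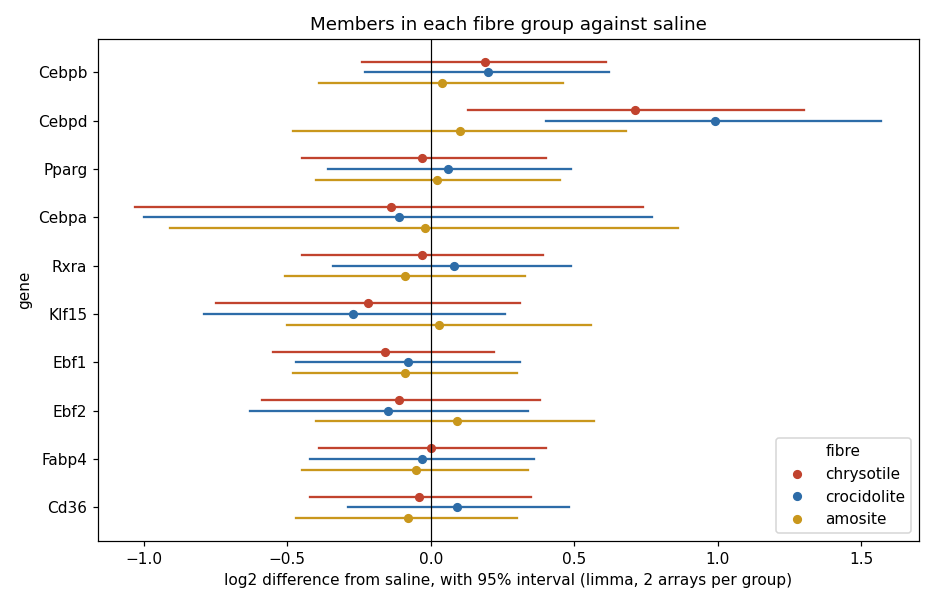
Log2 difference from saline of the 10 genes (vertical axis) with chrysotile, crocidolite and amosite; points are limma estimates from 2 arrays a group and lines their 95% intervals. The interval lies above 0 for Cebpd with chrysotile (0.13 to 1.30) and crocidolite (0.40 to 1.57) and includes 0 for every other point.

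Counted over the set, 0 of 10 members passed limma's adjusted threshold in any comparison with saline, and so did 0% of all genes. At an unadjusted p under 0.05, 1 of 10 passed with chrysotile, where 5.49% of all genes did, 1 of 10 with crocidolite, where 7.27% did, and 0 of 10 with amosite, where 2.66% did. That gene was Cebpd, higher both times, as 2.82% and 2.86% of all genes were. Groups did not overlap for 1 of 10 members with chrysotile and 1 of 10 with crocidolite, both Cebpd, against 29.6% and 34.4% of all genes (14.2% and 14.6% on the higher side). With amosite 0 of 10 did not overlap, against 21.1%. The median difference of the members was -0.03, 0.02 and 0.00, and that of all genes -0.01, -0.02 and -0.02. The members' medians turned with the saline array kept: they were -0.24, -0.16 and -0.19 without the first and 0.18, 0.20 and 0.21 without the second. With arrays centred on their median, the crocidolite median of the members was 0.20 with 9 of 10 above saline, and that of all genes 0.16. Within a log2 of 0.2 of saline lay 8, 8 and 10 members, and 63.7%, 61% and 75.5% of all genes.

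Between fibres, limma's adjusted threshold was again passed by 0 of 10 members and 0% of all genes. At an unadjusted p under 0.05, 1 of 10 members, Cebpd, passed for chrysotile against amosite, beside 4.33% of all genes, and for crocidolite against amosite, beside 5.12%, and 0 of 10 for chrysotile against crocidolite, beside 2.76%. The crocidolite and amosite arrays did not overlap for 5 of 10 members: Cebpb, Cebpd, Rxra and Cd36 were higher with crocidolite and Klf15 lower, where 37.8% of all genes did not overlap. The chrysotile and amosite arrays did not overlap for 3 of 10 members, Cebpd, Klf15 and Fabp4, beside 33.4% of all genes. The chrysotile and crocidolite arrays did not overlap for Cd36 alone, 1 of 10, beside 23.4%.

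The members varied between the 2 arrays of a group as well as between groups. Pparg, Cebpa, Cebpb, Cebpd, Ebf1, Ebf2 and Cd36, 7 of 10, were higher on the second array than on the first in all 4 groups, as were 17.4% of all genes, and 19.5% were lower on it in all 4. The replicate number was also the position of the array along one side of the slide, and the group its position along the other, so that position and group cannot be told apart. Cebpa had the steadiest such difference, with 0.66 in saline, 0.57 with chrysotile, 0.70 with crocidolite and 0.53 with amosite. Pparg, Fabp4 and Cd36 differed most within saline, by 0.48, 0.44 and 0.42, and by at most 0.13 within any fibre group. Klf15, Rxra and Cebpb also differed most within saline, by 0.49, -0.43 and 0.36, though Klf15 differed by 0.41 within crocidolite.

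**Figure D3:**
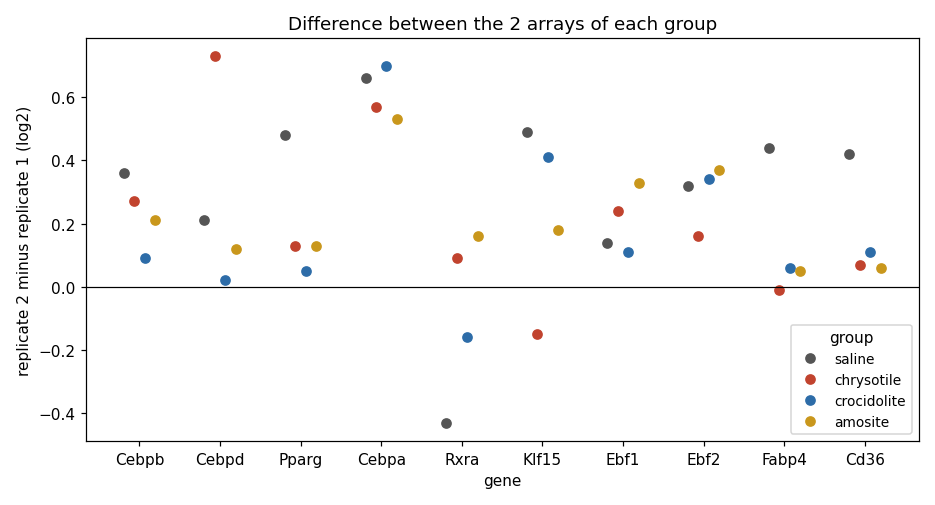
Replicate 2 minus replicate 1 in log2 units (vertical axis) for the 10 genes, with a point for each of the 4 groups. Cebpa lies between 0.53 and 0.70 in all groups, and Cebpd reaches 0.73 within chrysotile. Pparg, Fabp4 and Cd36 are highest within saline at 0.42 to 0.48, as are Klf15 at 0.49 and Cebpb at 0.36.

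Over the 8 arrays, Pparg ran with its targets, with a Pearson correlation of 0.86 with Fabp4 and 0.89 with Cd36. Cebpa ran with Ebf2 at 0.90, and Cebpd with Cebpb at 0.77 but with Pparg at 0.29. Cebpb ran about as closely with Pparg, at 0.76, and with Cd36, at 0.75. These points share their arrays and the scaling of each array, and include the difference between replicates described above, so they are given as a description.

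Of 13905 other genes with a symbol and above background on all arrays, the 5 with the highest Pearson correlation with Cebpd were Ccn5 and Ccn1, which encode secreted matricellular proteins, Dhx32, of the DEAH-box helicase family, Ccl6, a chemokine, and Osmr, the oncostatin M receptor. Their correlations were 0.992 to 0.998 over 8 arrays, with Spearman's rho of 0.90 to 1. Since 3 arrays lay high, the first chrysotile array in between and the others low, these coefficients largely describe separate clusters of points and carry no test. Osmr was at 2.09 and 2.19 in saline, 2.95 and 4.34 with chrysotile, 4.01 and 4.25 with crocidolite, and 2.09 and 2.32 with amosite. It shared with Cebpd the intermediate first chrysotile array. The 5 genes were chosen for their likeness to Cebpd on these same arrays. Their shared arrangement and differences follow from that choice and are no separate evidence for the Cebpd result. The differences from saline with chrysotile, crocidolite and amosite were 1.51, 1.99 and 0.07 for Osmr, 1.15, 1.54 and 0.14 for Ccn5, 1.24, 1.78 and 0.13 for Ccl6, 0.94, 1.35 and 0.14 for Ccn1, and 0.19, 0.30 and 0.01 for Dhx32.

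**Figure D4:**
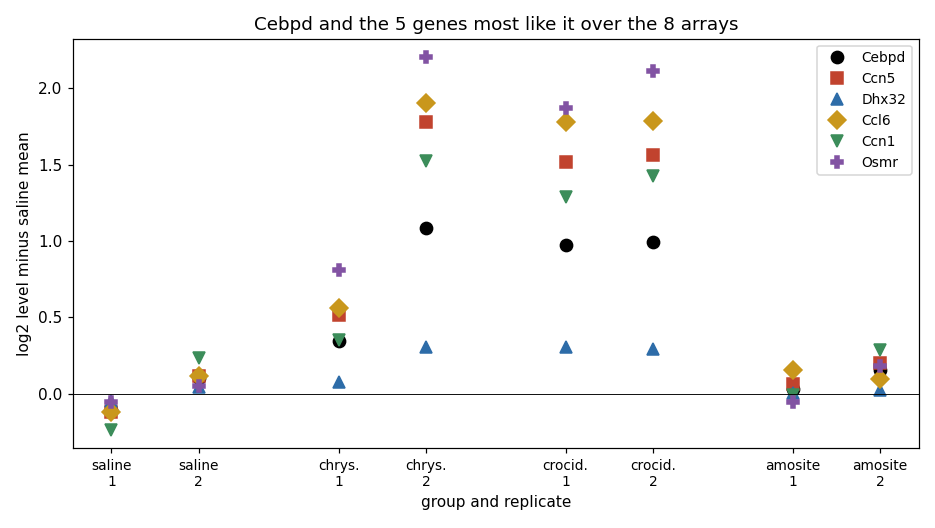
Log2 level minus the saline mean (vertical axis) of Cebpd and of the 5 genes most correlated with it, on each of the 8 arrays. The second chrysotile array and both crocidolite arrays are highest for all 6 genes, the first chrysotile array is intermediate, and the amosite arrays lie near saline. The 5 genes were chosen for this likeness, so the shared arrangement follows from the choice.

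For Pparg the 5 most correlated genes were Mob4, Scamp3, Pou2f2, Mthfd2l and Clcn4, with Pearson correlations of 0.964 to 0.98 and Spearman's rho of 0.86 to 0.95 over the same arrays. Mob4, for instance, was at 2.71 and 3.15 in saline and between 2.91 and 3.06 on all fibre arrays. Like Pparg, it had its lowest and its highest level in saline, which follows from its being chosen for likeness to Pparg.

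The other genes of the adipogenic programme were taken as 4 lists, and 0 genes of any list passed limma's adjusted threshold against saline. Of 27 other activators and cofactors 26 were measured, Prdm16 being too dim. Of these, 15, 15 and 21 were below saline with chrysotile, crocidolite and amosite, with medians of -0.06, -0.02 and -0.07, where 51.2%, 53.7% and 55.4% of all genes were below 0. These directions were not stable: 12 of 26 were below saline with chrysotile without its first array (median 0.08), 12 with amosite without its first array (median 0.02) and 13 with amosite without the second saline array. With median centring 7 of 26 were below saline with crocidolite (median 0.17), but the median of all genes was then 0.16. At an unadjusted p under 0.05, 1 was higher and 2 lower with chrysotile, and 0 with the other fibres. Zfp423, a zinc finger factor of preadipocyte commitment, differed by -0.44, -0.32 and -0.21, each ± 0.14, in the order chrysotile, crocidolite and amosite. Nfia, a nuclear factor I protein, differed by -0.42, -0.33 and -0.18, each ± 0.16. Its relative Nfib differed by 0.43, 0.44 and 0.45, each ± 0.26, but its second saline array (4.45) was at the level of the fibre arrays and its first (3.62) below them.

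Of 29 inhibitors of adipogenesis 27 were measured, without Wnt10b and Foxa2. Below saline were 18, 17 and 20 of them, with medians of -0.07, -0.08 and -0.06, beside the same shares of all genes. Without the first saline array the medians turned to 0.04, 0.11 and 0.05, with 13, 13 and 12 below saline, and without the second chrysotile array the chrysotile median was 0.07. With median centring 7 of 27 were below saline with crocidolite (median 0.10), where the median of all genes was 0.16. At an unadjusted p under 0.05, 1 was higher and 2 lower with chrysotile, 2 were higher with crocidolite, and 0 passed with amosite. Klf2, which represses Pparg, differed by 1.14, 0.85 and 0.79, each ± 0.39, but its saline arrays were far apart at -1.34 and -0.09. Nr2f2, an orphan nuclear receptor also known as COUP-TFII, differed by -0.49, -0.36 and 0.06, each ± 0.15. Smad3, a transducer of TGF-beta signals, differed by -0.30, -0.26 and -0.15, each ± 0.12.

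The targets of PPARg and C/EBPa, which include every adipocyte marker named above, were 29 genes, all measured. Of these, 23, 19 and 26 were below saline, with medians of -0.14, -0.13 and -0.11, where 51.2%, 53.7% and 55.4% of all genes were below 0. That direction turned with single arrays: without the second saline array the medians were 0.04, 0.06 and 0.05, and without the first -0.30, -0.30 and -0.27. Without the first crocidolite array the crocidolite median was 0.02, and without the first amosite array the amosite median was 0.03, each with 13 of 29 below saline. With arrays centred on their median instead, the crocidolite median was 0.05 and 12 of 29 were below 0. That centring moved all genes, whose crocidolite median was then 0.16, against -0.02 as reported. At an unadjusted p under 0.05, 2 were lower with chrysotile, 3 lower and 1 higher with crocidolite, and 0 passed with amosite. Fasn, the fatty acid synthase, was at 1.27 and 1.43 in saline, 0.87 and 0.91 with chrysotile, 0.93 and 1.01 with crocidolite, and 1.07 and 1.27 with amosite, all fibre arrays at or below the lower saline array. Its differences were -0.46, -0.38 and -0.18, each ± 0.13. Cidea, a lipid droplet protein, differed by -0.81, -0.79 and -0.02, each ± 0.27, and Gpd1, which makes glycerol 3-phosphate, by -0.40, -0.41 and -0.22, each ± 0.18.

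Of 24 family relatives of the members 19 were measured, without Cebpe, Klf14, Fabp1, Fabp6 and Fabp7. Below saline were 11, 11 and 14, with medians of -0.02, -0.08 and -0.06, beside 51.2%, 53.7% and 55.4% of all genes. With crocidolite 3 of 19 were below saline with median centring (median 0.10) and 8 without the second saline array (median 0.02). The chrysotile median was 0.03 with median centring. Under that centring the median of all genes was 0.16 with crocidolite and 0.04 with chrysotile. Quantile normalization gave a median of 0.01 for both fibres. At an unadjusted p under 0.05, 1 was higher with chrysotile, 1 higher with crocidolite and 2 lower with amosite. Scarb2, the lysosomal relative of Cd36, was the one named relative with a positive difference: 0.55, 0.70 and 0.03, each ± 0.19. Klf11 differed by -0.20, -0.27 and -0.41, each ± 0.13, and Fabp3, the heart-type relative of Fabp4, by -0.27, -0.28 and -0.17, each ± 0.14.

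**Figure D5:**
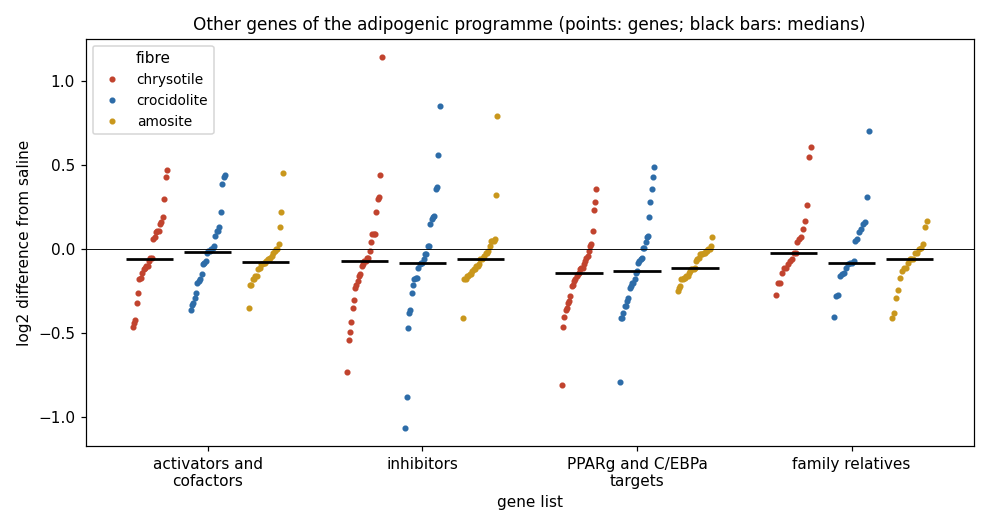
Log2 difference from saline (vertical axis) of each measured gene of the 4 lists, a point per gene and fibre, with black bars for the medians. The medians lie between -0.14 and -0.02, and single genes such as Klf2 (1.14 with chrysotile) stand away from them. Several medians change sign when a single array is left out or arrays are centred on their median. That centring also moves the median of all genes, to 0.16 with crocidolite.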

How the data were processed

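Total RNA was labelled with Cy3, per the labels' protocols. The deposited values are the linear processed intensity of each spot from Agilent Feature Extraction (10.7.1.1 per the file headers, 10.7 per the submitters' processing notes), with no scaling between arrays, and the deposited series values are the same intensity, with a largest difference of 0. Per the file headers the arrays were all on 1 slide and scanned on 1 date, so neither could be a block. Probe positions are on mm9 per the file headers.

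Control spots and outlier spots (99 to 183 an array) were left out and spots of a probe averaged. From each log2 intensity the array's own 75th percentile was subtracted, and 5 probes with a missing value were dropped. A probe was kept if well above background on both arrays of at least 1 group (33044 probes), and the brightest kept probe stood for its gene. For 6559 genes more than 1 probe was kept. The software was R 4.3.3, statmod 1.5.0, limma 3.58.1 and the data.table package (1.17.8). A limma model (lmFit and eBayes) was fitted to all 8 arrays, with 4 residual and 2.22 prior degrees of freedom, two-sided, with Benjamini-Hochberg adjustment over 23054 genes. The code was tested on simulated data. Alternatives were normexp background correction, quantile normalization, median centring, other probe filters and summaries, fits of 2 groups alone, a replicate block and leaving out each array. An exact permutation test of 2 arrays against 2 cannot go below p = 0.333 and was not used.

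Named are all members, the 3 genes of each list with the smallest p for the mean of the 3 fibres against saline, and the 5 genes most correlated with Pparg and with the member of smallest F test p. Marker genes were named from their own lists. Members and lists were chosen with earlier results of these data known. The labels do not say that a replicate number marks a shared batch.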

Additional observations from a re-analysis of the deposited data

How the results depend on the processing

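With 2 arrays a group the intervals given were wide. Even the largest difference of a member from saline, 0.99 for Cebpd with crocidolite, did not pass limma's adjusted threshold. Over the members, comparisons and alternatives run there were 1390 values, of which 94 had the opposite sign to the reported value, 68 moved by more than 1 standard error and 0 passed limma's adjusted threshold. The count of all genes past that threshold, 0 as reported, became 3, 2 and 2 for chrysotile, crocidolite and amosite against saline and 2 for the mean of the fibres with quantile normalization. It became 2, 1, 2 and 2 with arrays centred on the median, and 1 for the mean of the fibres with the mean of all probes of a gene. Leaving out 1 array gave 0 to 67 genes for chrysotile, 0 to 51 for crocidolite, 0 to 58 for amosite and 0 to 187 for the mean of the fibres, each highest without the second saline array, and 0 to 1 for chrysotile against crocidolite and against amosite. In these fits the lone array is assumed to vary like the other groups, and the cause was not tested. Median centring shifted the median of all genes by 0.18 for crocidolite against saline.

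With the replicate number as a block, 0 genes passed in every comparison. For Cebpd the block gave limma adjusted p-values of 0.438 with chrysotile and 0.283 with crocidolite. With the unplanned trended, robust prior described below they were 0.255 and 0.152, the latter the smallest with crocidolite over all settings. The differences between same-numbered arrays correlated between groups at 0.25 to 0.45, with 2 numbers in all. Adding a trended, robust prior to the block, chosen after seeing the data, gave 6 genes for chrysotile and 1 for crocidolite, none of them a member.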
